A study of Sus scrofa with 25 samples.

Results

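The cytosolic ribosomal proteins are the protein components of the ribosomes that translate nuclear-encoded mRNA, and 49 of their genes were measured here in the skeletal muscle of growing pigs. The genes were taken by symbol (RPL, RPS, RPLP and RPSA, without pseudogenes, kinases or mitochondrial ribosomal proteins) where at least 13 of 25 libraries held a count. Of 56 Ensembl identifiers with such a symbol, 50 were listed in the count files and 49 met the rule, out of 25879 genes listed in every file. They comprise 25 genes of the small subunit (RPS) and 24 of the large subunit (RPL). RPL10L had a count in too few libraries, and RPL13A, RPL22, RPL36, RPS10, RPS14 and RPS26 were not analysed here. RPS6, RPL26, RPS27, RPL22L1 and RPL39 matched no identifier by symbol and were not analysed here either.

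A cytosolic ribosome holds a small subunit, which decodes the mRNA, and a large subunit, which joins the amino acids. The mRNAs of nearly all of its proteins begin with a terminal oligopyrimidine tract, through which the kinase mTORC1 controls their translation, so that protein output can change without a change in mRNA level. Skeletal muscle is known for RPL3L, a close relative of RPL3 that is expressed mainly in skeletal and heart muscle and takes the place of RPL3 in a part of their ribosomes.

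The pigs were crosses of Polish Large White sows with Landrace boars and were put on their diets at day 85 of life and kept on them over 90 days. The control diet held no added vitamin D3 (0 IU/kg, 8 pigs), and the other diets held 5000 IU/kg (8 pigs) or 10000 IU/kg (9 pigs). Each library is the muscle RNA of 1 pig, read with QuantSeq, which sequences 1 short fragment near the 3′ end of each mRNA, so counts do not scale with transcript length. Levels between genes are compared on that basis, with the limit that reads shared with processed copies can be lost as multi-mapped, to a different extent for each gene. Levels are given as CPM, the count of a gene scaled to libraries of equal total gene count. The study asked whether the vitamin D3 dose alters the muscle transcriptome. The muscle sampled, the sex of each pig and its litter are not stated in the labels, so litter could not enter any fit.

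Gene counts per library ran from 3310507 to 15177976, and the summed counts of the 49 genes ran from 110993 to 1117489. Libraries stood apart in 2 ways that the fits below take up. In the library of 10000 IU/kg pig 27, 8 of 8 adipocyte markers were at their highest of the 25 libraries and summed to 22051 CPM, against 163 to 708 CPM in the other 24. There 7 of 9 skeletal muscle markers were at their lowest and the list summed to 13239 CPM, against 70669.5 to 257072 CPM elsewhere. The share of reads assigned to a gene was taken over all counts of a file, including those not assigned. The entries for unaligned and low-quality reads held no counts in any file. The assigned share ran from 24.9% in 5000 IU/kg pig 18 and 28.4% in 10000 IU/kg pig 2 to 70.6% in control pig 14. It was also under 45% in 5000 IU/kg pig 11 (43.8%) and 10000 IU/kg pig 7 (38.2%), while the lowest control library was at 45.1%. Skeletal muscle markers were present in all 25 libraries, and the B cell gene CD79A was at 0 in every library. Liver markers also differed widely, with sums of 1921 to 26067 CPM and ALB at up to 18158 CPM. No fit took the liver markers into account, and their part in the values that follow was not tested. The part of adipocyte RNA in the values that follow was not tested. For the diet comparisons, a fit with the assigned share as a covariate and fits without these 5 libraries are given where they move a count, a direction or a named value. In bulk RNA, fewer cells of a type and less RNA per cell cannot be told apart.

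As counted, the 49 genes spanned a 284-fold range of median CPM. Of these, 14 genes had a median over 1000 CPM, 33 lay between 100 and 1000 CPM, and 2 lay under 100 CPM. The 6 most abundant genes held 35.7% of all ribosomal protein counts, and RPLP1, RPL10, RPS28, RPLP0 and RPS2 were among them. At the low end stood RPL36A, RPL3L, RPL3, RPS27L, RPL7L1 and RPL26L1, of which 4 are relatives of another ribosomal protein gene and 1, RPL3, is the usual partner of such a relative. No gene was at 0 in any library, and the smallest single count was 17, for RPL26L1.

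**Figure D1:**
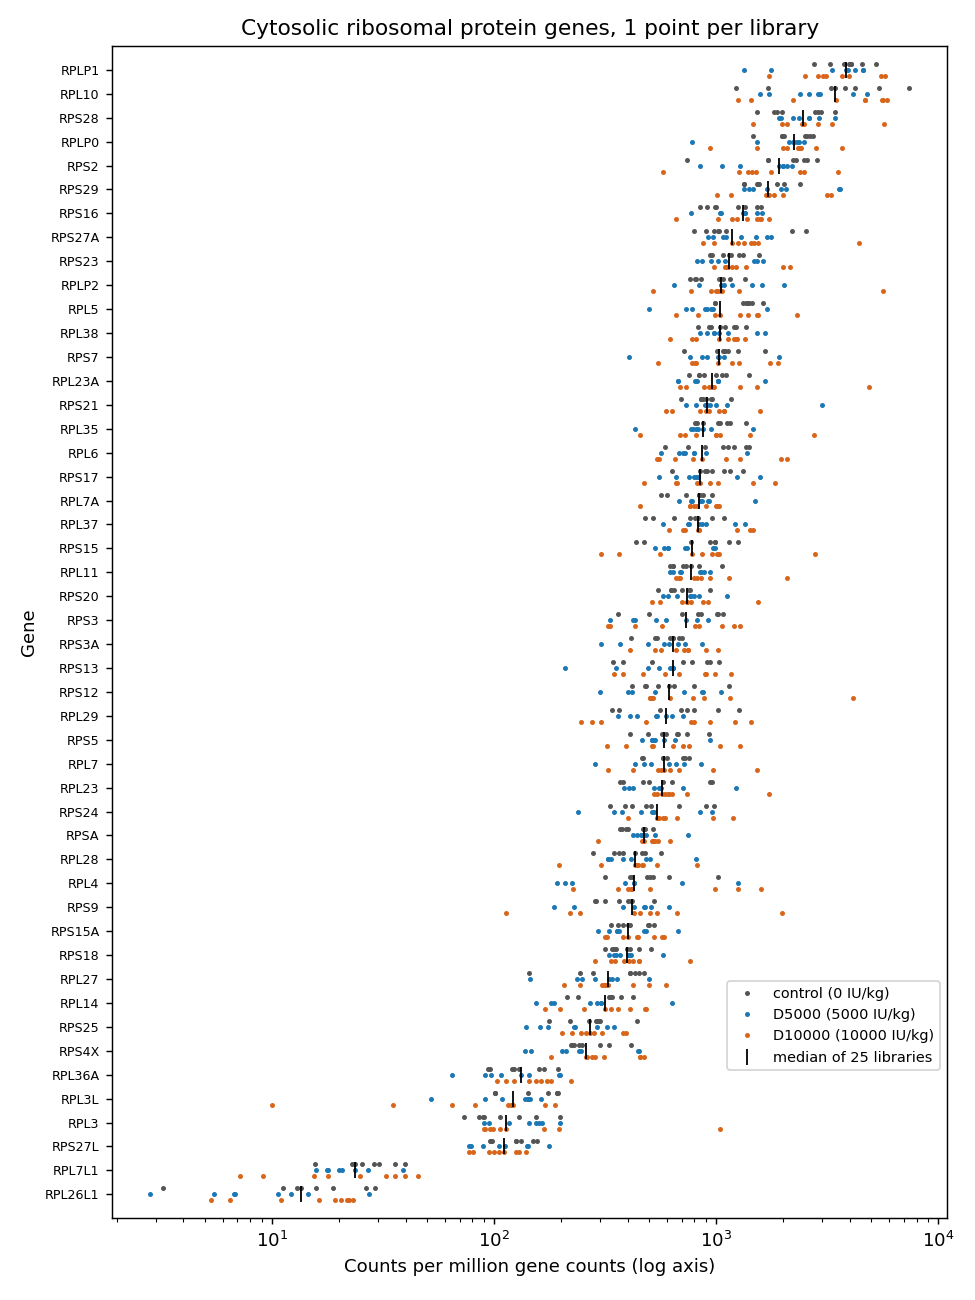
Level of 48 cytosolic ribosomal protein genes in CPM on a log axis, with 1 point per library coloured by diet and a bar at the median over the 25 libraries. RPLP1 stands highest at a median of 3848 CPM and RPL26L1 lowest at 13.6 CPM, and the library of 10000 IU/kg pig 27 lies outside the others for RPL3, RPS12 and RPLP2 on the high side and for RPL3L on the low side.

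The stalk of the large subunit, which recruits the GTP-hydrolysing translation factors, is built from RPLP0 and copies of RPLP1 and RPLP2. RPLP1 (ENSSSCG00000004970) was the most abundant of the 49 genes. Its lowest, median and highest levels were 2772, 4004 and 5269 CPM in the control group, 1341, 3890 and 4599 CPM at 5000 IU/kg, and 1732, 3117 and 5770 CPM at 10000 IU/kg. RPLP0 (ENSSSCG00000036014), the base of the stalk, stood at 1462, 2263 and 2731 CPM in controls, at 776, 2227 and 2480 CPM at 5000 IU/kg, and at 937, 2348 and 3710 CPM at 10000 IU/kg. For both genes the diets overlapped widely, and the lowest libraries were 5000 IU/kg pig 18 and 10000 IU/kg pig 2, the pair with the smallest assigned share. RPLP2 (ENSSSCG00000012842) was less abundant, at 765, 943 and 1347 CPM in controls, 648, 1130 and 2030 CPM at 5000 IU/kg, and 520, 1023 and 5648 CPM at 10000 IU/kg. Its highest value came from the adipocyte-rich library, and the next highest was 2030 CPM.

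Within the small subunit, RPS28 (ENSSSCG00000013597) was among the most abundant genes. Its lowest, median and highest levels were 1522, 2386 and 3447 CPM in controls, 1918, 2498 and 3437 CPM at 5000 IU/kg, and 1463, 2454 and 5728 CPM at 10000 IU/kg. Its highest library was 10000 IU/kg pig 27, and the 3 groups overlapped. RPS2 (ENSSSCG00000033697), which sits near the mRNA entry channel, ran the other way in that library, where it had its lowest level. It stood at 739, 2256 and 2847 CPM in controls, 848, 1965 and 2205 CPM at 5000 IU/kg, and 579, 1519 and 3531 CPM at 10000 IU/kg. RPSA (ENSSSCG00000037236), also known as the laminin receptor, had the smallest within-diet SD of log2 levels of the 49 genes, though not without pig 27. It stood at 368, 436 and 522 CPM in controls, 425, 470 and 750 CPM at 5000 IU/kg, and 296, 519 and 619 CPM at 10000 IU/kg.

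Within the large subunit outside the stalk, RPL10 (ENSSSCG00000035997), which is loaded late in the maturation of the subunit, was the most abundant. It was also among the more variable, at 1227, 3616 and 7431 CPM in controls, 1575, 2743 and 4790 CPM at 5000 IU/kg, and 1253, 4682 and 5912 CPM at 10000 IU/kg. The groups overlapped over most of that range, with low libraries in every diet. RPL5 (ENSSSCG00000006899), which carries the 5S rRNA into the subunit together with RPL11, stood at 990, 1377 and 1624 CPM in controls, 497, 901 and 1700 CPM at 5000 IU/kg, and 663, 1286 and 2314 CPM at 10000 IU/kg. RPL4 (ENSSSCG00000004945), which lines the exit tunnel of the growing peptide, ran from 192 to 1602 CPM over the 25 libraries, with its lowest value in 5000 IU/kg pig 6. RPL36A (ENSSSCG00000039046) had a median of 133 CPM and ran from 65.0 to 222 CPM.

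Together the 49 genes took a median of 4.49% of all gene counts. The lowest, median and highest shares were 4.01%, 4.47% and 5.56% in controls, 3.63%, 4.44% and 5.12% at 5000 IU/kg, and 3.35%, 4.55% and 8.69% at 10000 IU/kg. The means were 4.62% ± 0.570 (SD, n = 8), 4.42% ± 0.513 (SD, n = 8) and 5.07% ± 1.63 (SD, n = 9) in the same order. Without pig 27 the mean at 10000 IU/kg was 4.62% ± 0.959 (SD, n = 8). The groups overlapped, and the spread at 10000 IU/kg came mostly from pig 27 at 8.69% (Wilson 95% interval 8.68% to 8.71%) and pig 13 at 6.49% (6.48% to 6.50%). The lowest shares were in 10000 IU/kg pig 2, at 3.35% (3.33% to 3.37%), and 5000 IU/kg pig 18, at 3.63% (3.61% to 3.64%). These intervals cover counting error only, and they treat each read as an independent molecule. Reads without molecular identifiers are not, so the intervals can be too narrow. The small subunit genes took 1.93% to 4.46% of the counts and the large subunit genes 1.39% to 4.23%. The ratio of the small to the large subunit sum had a median of 1.08, and ran from 0.904 in control pig 14 to 1.58 in 5000 IU/kg pig 18.

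**Figure D2:**
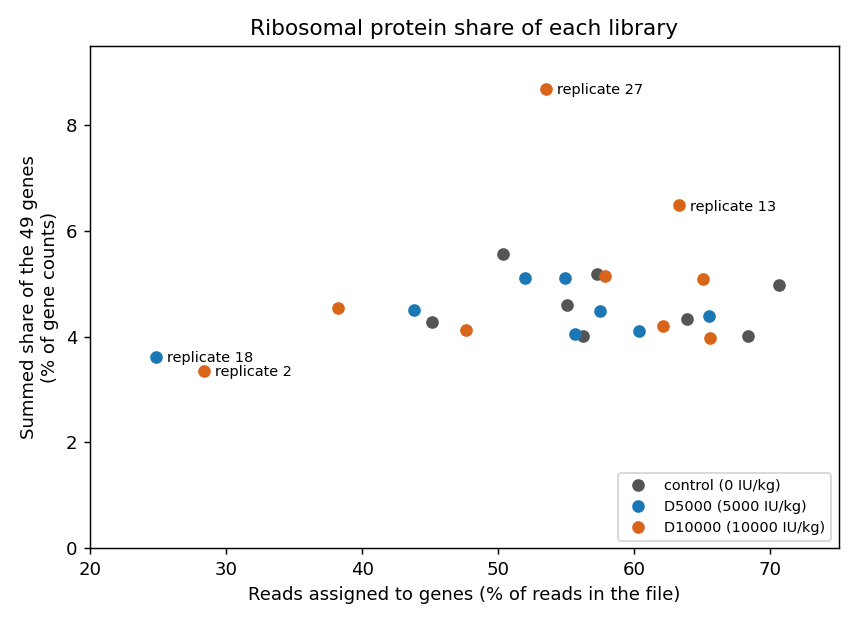
Summed counts of the 49 genes as a percentage of all gene counts (vertical axis) against the share of reads assigned to genes (horizontal axis), with 1 point per library coloured by diet. The libraries of 10000 IU/kg pigs 27 and 13 stand highest at 8.69% and 6.49%, and the pair with the smallest assigned shares, 5000 IU/kg pig 18 and 10000 IU/kg pig 2, stands lowest at 3.63% and 3.35%.

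The diets were compared to ask whether any of these genes followed the vitamin D3 dose. With edgeR's quasi-likelihood test and Benjamini-Hochberg adjustment over the 10992 genes that passed the low-count filter, among them all 49 ribosomal protein genes, 0 of 49 passed an adjusted p of 0.05 at 5000 IU/kg against control, where 0% of all genes passed. The count was also 0 of 49 at 10000 IU/kg against control (0% of all genes), at 10000 against 5000 IU/kg (0%), in the joint test of the 3 diets (0%) and in the trend over dose (0%). At an unadjusted p of 0.05, 0 of 49 passed in each of the 5 tests. The share of all genes at that limit was 3.38% at 5000 IU/kg, 2.39% at 10000 IU/kg, 2.94% at 10000 against 5000 IU/kg, 2.66% in the joint test and 2.65% in the trend. DESeq2 likewise gave 0 of 49 at either limit in the 3 contrasts.

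The fitted differences of the family were small beside their errors. At 5000 IU/kg the median log2 fold change of the 49 genes was -0.11, against 0.01 for all genes tested, with a median SE of 0.33 for the 49 genes. At 10000 IU/kg it was -0.08, against 0.07 for all genes, with a median SE of 0.32. By sign alone, 34 of 49 genes were fitted lower at 5000 IU/kg, where 49% of all genes were lower, and 34 of 49 at 10000 IU/kg, where 42.8% were lower. Both comparisons share the 8 control libraries, so these are not separate counts. Between 10000 and 5000 IU/kg the median was 0.08, against 0.04 for all genes, and 17 of 49 genes were lower, against 45.4%. In the trend over dose 34 of 49 genes were lower, against 43.1% of all genes. The large subunit genes had a median of -0.18 at 5000 IU/kg and -0.11 at 10000 IU/kg, and the small subunit genes -0.07 and -0.04.

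These sign counts moved with single libraries and with the fit. With the assigned share as a covariate, 17 of 49 genes were lower at 5000 IU/kg, with a median of 0.05, and 18 of 49 at 10000 IU/kg, also with a median of 0.05. Without the 5 libraries that stand apart, 17 of 49 were lower at 5000 IU/kg (median 0.08), 19 of 49 at 10000 IU/kg (median 0.04) and 27 of 49 between the doses (median -0.01). RLE scaling in place of TMM left 28 of 49 lower at 10000 IU/kg. Leaving out control pig 14 or 10000 IU/kg pig 2 gave 21 of 49 lower at 10000 IU/kg, and leaving out 10000 IU/kg pig 27 gave 41 of 49. Between the doses, the count of lower genes was 26 without 10000 IU/kg pig 27, 10 without 10000 IU/kg pig 2, and 11 without either 10000 IU/kg pig 7 or 5000 IU/kg pig 25. The medians also changed sign with single libraries left out. At 5000 IU/kg the median was 0.02 without control pig 10 and 0.004 without 5000 IU/kg pig 18. At 10000 IU/kg it was 0.01 without control pig 14 and 0.03 without 10000 IU/kg pig 2. Between the doses it was -0.03 without 10000 IU/kg pig 27 and -0.0005 without 5000 IU/kg pig 18.

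**Figure D3:**
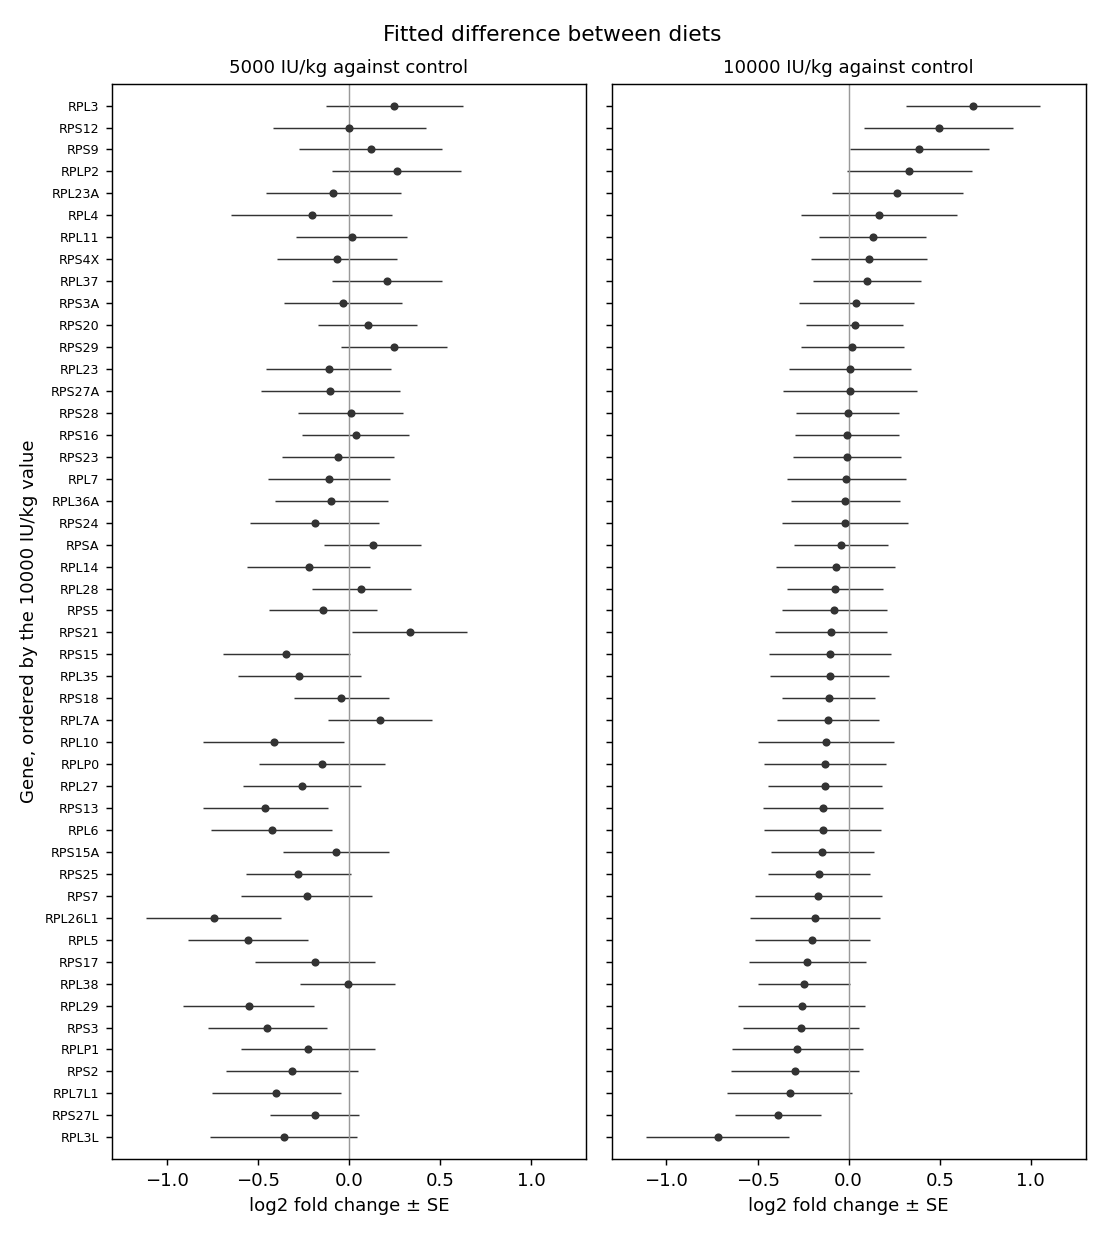
Fitted log2 fold change ± SE of 48 genes at 5000 IU/kg (left) and 10000 IU/kg (right) against control, from 1 edgeR fit of 25 libraries, in the order of the 10000 IU/kg values. The points lie near 0 and the standard errors, with a median of 0.33 on the left and 0.32 on the right, are larger than most of the values, which run from RPL3 at 0.68 to RPL3L at -0.72 on the right.

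The genes with the smallest p in each contrast are given as values, and none passed the test. At 5000 IU/kg the smallest p belonged to RPL26L1 (ENSSSCG00000016989), a relative of RPL26. It stood at 3.23, 14.7 and 29.1 CPM (lowest, median, highest) in controls and at 2.83, 8.71 and 27.5 CPM at 5000 IU/kg, with groups that overlapped. Its log2 fold change was -0.74 ± 0.37 (SE, edgeR adjusted p = 0.999). RPL5 followed at -0.55 ± 0.33, RPL29 at -0.55 ± 0.36, RPS13 at -0.46 ± 0.34 and RPS3 at -0.45 ± 0.33. RPS3, which lies at the mRNA entry site, stood at 361, 847 and 1074 CPM in controls and at 334, 566 and 919 CPM at 5000 IU/kg. RPS13 stood at 344, 748 and 1034 CPM in controls and at 210, 588 and 640 CPM at 5000 IU/kg, so all 8 libraries of the latter lay below the control median. RPL29 stood at 342, 719 and 1274 CPM in controls and at 361, 539 and 708 CPM at 5000 IU/kg, again all below the control median and within the control range. Without control pig 14 the log2 fold change of RPL29 was -0.27. Without the 5 libraries that stand apart, RPL5 was at -0.35 and RPS13 at -0.28.

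At 10000 IU/kg against control the smallest p values belonged to RPL3 and RPL3L. RPL3 had a log2 fold change of 0.68 ± 0.37 and RPL3L of -0.72 ± 0.39 (SE, edgeR adjusted p = 1.00 for both). Without the library of pig 27 the value of RPL3 was -0.05 and that of RPL3L was -0.55, and without all 5 libraries that stand apart RPL3L was at -0.33. RPS27L, a relative of RPS27 known as a p53 target, stood at 95.8, 126 and 156 CPM in controls and at 77.2, 106 and 140 CPM at 10000 IU/kg, with a log2 fold change of -0.39 ± 0.24, which was -0.25 without control pig 10. RPS12 had 0.49 ± 0.41 and RPS9 had 0.39 ± 0.38, and without pig 27 these were 0.02 and -0.00. For RPL3, RPS12 and RPS9, the fitted difference at this dose therefore came from 1 library.

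Between the doses, RPL26L1 was fitted at 0.56 ± 0.36, RPS12 at 0.49 ± 0.41, RPL3 at 0.43 ± 0.37, RPL5 at 0.36 ± 0.32 and RPS21 at -0.43 ± 0.31. RPS21, a small subunit protein needed to finish the maturation of the 18S rRNA, stood at 735, 926 and 2993 CPM at 5000 IU/kg and at 592, 927 and 1585 CPM at 10000 IU/kg. Its high value at 5000 IU/kg was 1 library, pig 6, and without it the difference was -0.02. Without 10000 IU/kg pig 27, RPL3 turned to -0.31 and RPS12 to 0.02. RPL5 was at 0.22 without 10000 IU/kg pig 13.

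RPL3 and its muscle relative RPL3L were present at similar levels in most of these libraries. RPL3L (ENSSSCG00000032657) stood at 101, 159 and 195 CPM in controls, 52.0, 140 and 162 CPM at 5000 IU/kg, and 10.0, 116 and 188 CPM at 10000 IU/kg. RPL3 (ENSSSCG00000040494) stood at 73.4, 98.6 and 198 CPM, 90.4, 150 and 199 CPM, and 90.1, 107 and 1043 CPM in the same order. The lowest RPL3L and the highest RPL3 came from the same library, 10000 IU/kg pig 27, and in the other 24 libraries RPL3 reached at most 199 CPM and RPL3L was never below 35.04 CPM. RPL3L overlaps NDUFB10 in RefSeq's annotation of Sscrofa11.1, and the labels do not state whether counting used strand.

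The ratio of RPL3L to RPL3 had a median of 0.982 and was above 1 in 12 of 25 libraries. In controls it ran from 0.509 to 2.63 with a median of 1.53, and it was above 1 in 6 of 8 libraries. At 5000 IU/kg it ran from 0.362 to 1.25 with a median of 0.935, above 1 in 2 of 8. At 10000 IU/kg it ran from 0.00966 to 2.07 with a median of 0.849, above 1 in 4 of 9. The 3 groups overlapped, and control pigs 14 and 16 and 10000 IU/kg pig 1 held the only ratios above 2. The mean log2 ratio was 0.39 ± 0.82 (SD, n = 8) in controls, -0.22 ± 0.57 (SD, n = 8) at 5000 IU/kg and -0.92 ± 2.29 (SD, n = 9) at 10000 IU/kg. At 5000 IU/kg it was lower than in controls by a difference of -0.61 (two-sided exact permutation p = 0.103, Benjamini-Hochberg adjusted over 6 ratio tests 0.31). At 10000 IU/kg the difference from controls was -1.31 (exact permutation p = 0.102, adjusted 0.31), and it was -0.59 without pig 27. Between the doses it was -0.70 (exact permutation p = 0.572, adjusted 0.572), and 0.02 without pig 27. None of the 3 passed the test.

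In 10000 IU/kg pig 27 the library held 129 counts of RPL3L and 13405 of RPL3, so that RPL3L made up 0.953% of the counts of the pair (exact 95% interval 0.796% to 1.13%). The next lowest shares were 24.7% in 10000 IU/kg pig 2 (20.8% to 28.8%) and 26.6% in 5000 IU/kg pig 18 (23.6% to 29.7%), the libraries with the smallest assigned shares. The highest was 72.5% in control pig 14 (70.4% to 74.4%), which had the largest assigned share. These intervals have the same limit as those of the summed shares. Across the 25 libraries, with levels centred within diets for Pearson's r and permutation within diets, r between the log2 levels of RPL3L and RPL3 was -0.59 (permutation p = 0.063, adjusted over 2 pairs 0.063) and Spearman's rho was -0.18 (permutation p = 0.404). Without the 2 libraries farthest from the median of RPL3L, 10000 IU/kg pigs 27 and 2, r was 0.02 (permutation p = 0.934). Without pig 27 alone it was 0.05 (permutation p = 0.827), so the relation rests on that library.

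**Figure D4:**
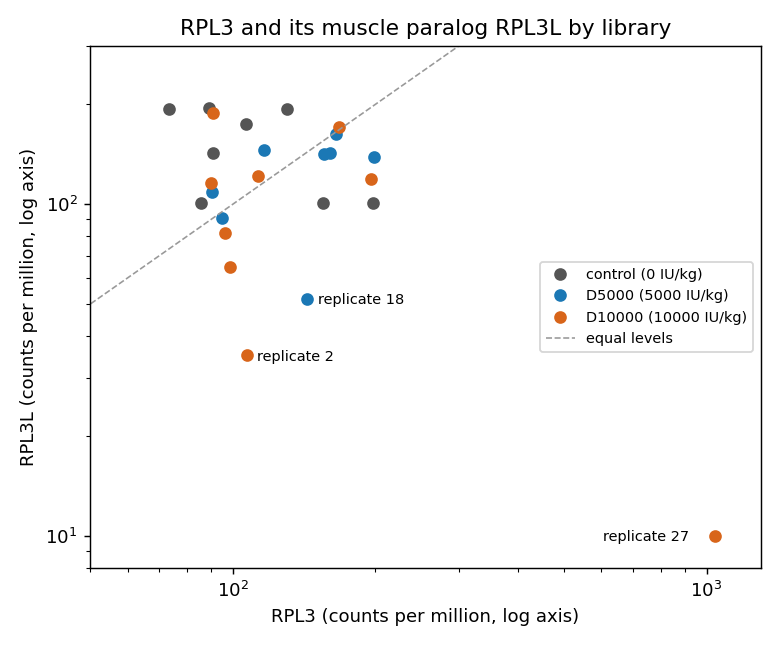
RPL3L against RPL3 in CPM, both on log axes, with 1 point per library coloured by diet and a line where both are equal. In 24 libraries the points scatter around the line between ratios of 0.329 and 2.63, and the library of 10000 IU/kg pig 27 lies far off it at a ratio of 0.00966.

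Another pair of relatives could be measured on the same terms. RPL7L1 (ENSSSCG00000026472), a relative of RPL7 that acts in ribosome assembly, stood at 15.6, 27.2 and 39.97 CPM in controls, 15.9, 20.4 and 38.8 CPM at 5000 IU/kg, and 7.22, 24.9 and 45.4 CPM at 10000 IU/kg. RPL7 (ENSSSCG00000032111) stood at 465, 591 and 752 CPM, 285, 565 and 856 CPM, and 326, 582 and 1530 CPM in the same order. RPL7L1 was the lower of the pair in every library, at a ratio between 0.0161 (10000 IU/kg pig 26) and 0.0694 (control pig 28) with a median of 0.0405. The mean log2 ratio differed from controls by -0.15 at 5000 IU/kg (exact permutation p = 0.468, adjusted 0.562) and by -0.39 at 10000 IU/kg (exact permutation p = 0.199, adjusted 0.397). Between the doses it differed by -0.25 (exact permutation p = 0.408, adjusted 0.562). The levels of RPL7L1 and RPL7 rose and fell together across the 25 libraries, with r = 0.60 (permutation p = 0.00694, adjusted 0.0139) and rho = 0.69 (permutation p = 0.00025, adjusted 0.0005). Without the 2 libraries farthest from the median of RPL7L1, 10000 IU/kg pigs 7 and 26, r was 0.62 (permutation p = 0.00492). Both genes share each library and its composition, and RPL7 also had an r of 0.88 with the mean of the other 48 ribosomal protein genes.

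The library of 10000 IU/kg pig 27 differed most in its ribosomal protein profile, as a description of 1 library with no test. Of the 49 genes, 26 were at their highest of all 25 libraries there and 3 at their lowest (RPS2, RPS29 and RPL3L). CPM leaves out the TMM factors of the fits, which ran from 0.679 to 1.54 and stood at 1.29 in this library. The counts of genes and the folds given here depend on that choice and were not repeated with TMM scaling. Against the median of the other 24 libraries, 39 genes were higher, 20 of them by more than 2-fold, and the median fold was 1.77. The largest was RPL3 at 9.48-fold, with 1043 CPM against 73.4 to 199 CPM in the other libraries. RPS12 stood at 7.10-fold, RPLP2 at 5.43-fold, RPL23A at 5.16-fold, RPS9 at 4.76-fold, RPS27A, which encodes a fusion of ubiquitin and a small subunit protein, at 3.83-fold, and RPL4 at 3.79-fold. On the other side, RPS2 was at 0.29 and RPL3L at 0.08 of the median of the others. RPLP0 at 0.88 and RPLP1 at 0.80 were also below it, while RPLP2, of the same stalk, was above. The family therefore did not shift as a block in this library. The 62 mitochondrial ribosomal protein genes tested also took their largest share there, at 0.291% of gene counts. Their median share was 0.183% over the libraries. The adipocyte and muscle markers stood apart in the same library, as given above. Other marker lists were also at their highest sum there, each through a few of its genes. Extracellular matrix markers summed to 7070 CPM against 642 to 2882 CPM elsewhere, with 3 of 7 genes at their highest (COL1A1, COL3A1 and FMOD). Immune markers summed to 476 CPM against 48.8 to 246 CPM, with 1 of 5 at its highest (CD74), and endothelial markers to 359 CPM against 42.9 to 165 CPM, with 1 of 3 (PECAM1). The part of these cell types in the profile was not tested.

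The libraries with the smallest assigned shares, 5000 IU/kg pig 18 and 10000 IU/kg pig 2, had a profile in common, chosen for description after the values were seen. Relative to each gene's own median on the log2 scale, RPLP0 was at -1.53 and -1.26, RPLP1 at -1.52 and -1.15, and RPL3L at -1.23 and -1.80 in the pair. In the same libraries RPS29 was at 1.05 and 0.94 and RPL37 at 0.56 and 0.59. RPS29 and RPL37 encode small zinc-binding proteins of the small and the large subunit. The same signs were seen in 10000 IU/kg pig 21, with an assigned share of 47.6%, where RPLP0 was at -0.55, RPLP1 at -0.61, RPL3L at -0.91, RPS29 at 0.89 and RPL37 at 0.78. They were not all seen in the other libraries with an assigned share under 45%. RPLP0 was at 0.10 in 10000 IU/kg pig 7. In 5000 IU/kg pig 11 RPLP0 was at -0.02, but RPL3L was at 0.23. RPS29 was highest in 5000 IU/kg pig 6, at 1.08. Of the 49 genes, 14 were above their own median in 5000 IU/kg pig 18 and 9 in 10000 IU/kg pig 2. By contrast 46 were above it in 10000 IU/kg pig 13 and 40 in control pig 9. Multi-mapped reads can come from the many processed copies of ribosomal protein genes. They made up 38.7% of all counts in the file of 5000 IU/kg pig 18 and 34.1% in that of 10000 IU/kg pig 2. In the other libraries they made up 12.5% to 23.3%. Their part in this profile was not tested.

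Across the 25 libraries, the genes varied by a median within-diet SD of 0.50 on the log2(CPM + 1) scale, and by 0.44 without 10000 IU/kg pig 27. RPSA (0.25), RPS18 (0.31) and RPS15A (0.32) varied least. Without pig 27 they were at 0.26, 0.24 and 0.31, and RPS18 varied least of the 49 genes. RPL3L (0.87), RPL26L1 (0.83) and RPL4 (0.82) varied most, and without pig 27 these 3 were at 0.60, 0.85 and 0.76. The biological coefficient of variation in the edgeR fit had a median of 0.458 for the 49 genes, from 0.362 to 0.600, against 0.585 for all genes tested. Among the 5035 other genes in the abundance range of the family the median was 0.470, and among the 108 in its middle abundance range it was 0.538. The difference from other genes therefore depended on the genes it was set against.

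The 49 genes did not move as 1 unit between pigs. Over their 1176 pairs, the median correlation across libraries within diets was 0.27, with 75.1% of pairs above 0, and without pig 27 it was 0.21, with 70.3% above 0. These correlations share library and depth and are given as description. The 62 mitochondrial ribosomal protein genes tested had a median of 0.10, and 0.11 without pig 27. They were far less abundant, with a median of 0.183% of all gene counts together against 4.49% for the 49 genes. The part of their lower counts in these correlations was not tested. RPL6 and RPL35 followed the mean of the other 48 genes most closely, each at r = 0.90, and 28 genes had an r above 0.5. RPS29, RPL3L, RPS27L and RPL37 were below 0, and without pig 27 only RPS29 and RPL37 were. Without pig 27 the strongest pair was RPL35 with RPS7 at 0.93 and the most opposed was RPL28 with RPS12 at -0.71, which shows that single pairs ranged over most of the scale.

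Without pig 27, the first principal component of the 49 genes held 37.7% of their within-diet variance and the second 25.5%. The first had its largest weights at RPL10 (0.29), RPS13 (0.27), RPL3L (0.26) and RPL29 (0.26), and most of the 49 genes shared their sign. Weights of the opposite sign were smaller, with RPL37 and RPS29 the largest at -0.11 each. On this component 10000 IU/kg pig 2, 5000 IU/kg pig 18 and control pig 10 stood at one end and 10000 IU/kg pig 13 at the other. RPL10, for example, stood at 1437, 1575 and 1227 CPM in the former 3 libraries and at 5563 CPM in the latter. The second set RPL4, RPS12 and RPS24 against RPS15, RPL10 and RPL29. On it 10000 IU/kg pig 30, 5000 IU/kg pig 29 and control pig 28 stood at one end. At the other stood 5000 IU/kg pig 6. Levels were centred within diets first, so neither component can show whether the profile follows the diet. RPL4 was at 1255, 1262 and 1017 CPM in pigs 30, 29 and 28 and at 192 CPM in pig 6, and RPS12 at 1157, 1058 and 1140 CPM against 299.97 CPM. In 10000 IU/kg pig 30, 13 of 49 genes were at their lowest of all libraries, and RPL4 was at 1.56 above its own median on the log2 scale while RPL10 was at -1.45.

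**Figure D5:**
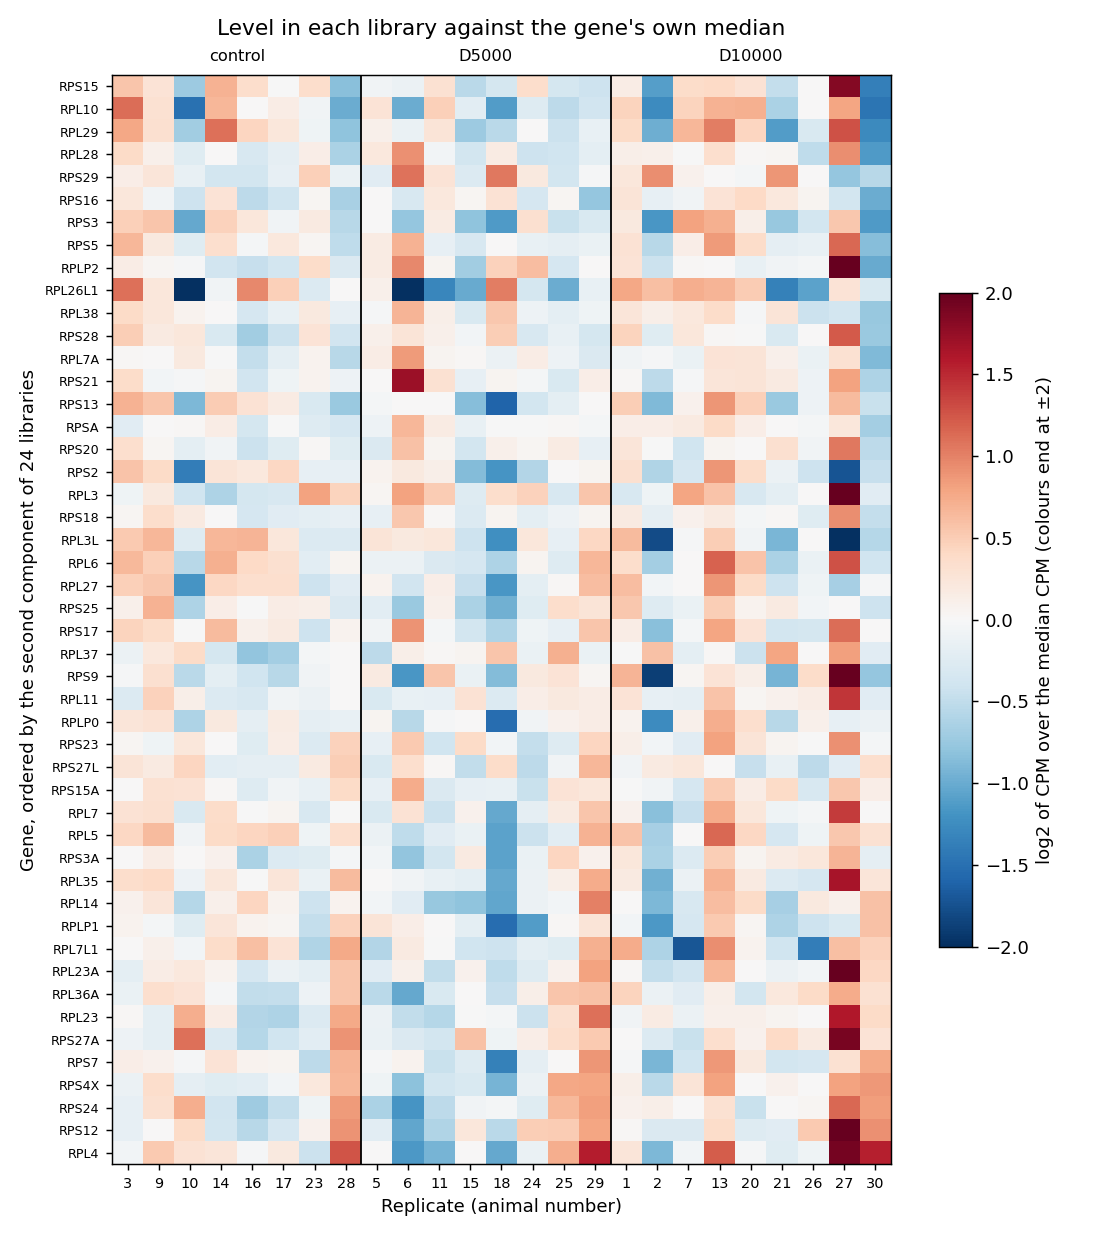
Deviation of 48 genes (rows) from its own median over the 25 libraries (columns, labelled by pig number and ordered by diet) as log2 of CPM over the median CPM, in colour that ends at 2 in either direction. The column of 10000 IU/kg pig 27 is high for most genes and low for RPL3L and RPS2, and 5000 IU/kg pig 18 and 10000 IU/kg pig 2 share low RPLP0 and RPLP1 with high RPS29.

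Other genes of translation gave 0 calls as well. Of the 62 mitochondrial ribosomal protein genes tested, 0 passed the adjusted test in any contrast, 46 were fitted lower at 5000 IU/kg (median log2 fold change -0.22) and 47 at 10000 IU/kg (median -0.17). Of 16 genes of mTORC1 and the control of translation, 0 passed, 12 were lower at 5000 IU/kg (median -0.15) and 13 at 10000 IU/kg (median -0.09). A further 11 genes, mostly of translation factors but with TPT1 and NAP1L1 among them, were listed for the oligopyrimidine start. That start was not checked in pig sequence. Of these 11 genes, 0 passed, 8 were lower at 5000 IU/kg (median -0.18) and 7 at 10000 IU/kg (median -0.06). Beside these counts, 49% of all genes tested were lower at 5000 IU/kg and 42.8% at 10000 IU/kg. Between the doses, 39 of the 62 mitochondrial genes and 8 of the 16 mTORC1 genes were fitted higher at 10000 IU/kg, with medians of 0.07 and 0.04. So were 10 of the 11 genes listed for the oligopyrimidine start, with a median of 0.10. The sign counts of these lists were not refitted without single libraries or with the assigned share. Of 19 genes of ribosome biogenesis and RNA polymerase I, which supply the rRNA and the assembly factors, 0 passed, and 9 were lower at each dose, with medians of 0.04 and 0.00. FAU, which encodes a ubiquitin-like fusion of a small subunit protein, was fitted at 0.03 ± 0.34 and RACK1, a scaffold on the small subunit, at -0.14 ± 0.31 at 5000 IU/kg (SE). All lists share the same control libraries and the same few libraries that stand apart.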

How the data were processed

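QuantSeq 3′ FWD libraries of pig muscle RNA were analysed from the deposited tables of raw counts per Ensembl gene, 1 per pig. The summary lines carry the names htseq-count uses. The submitters' processing notes name FastQC. Aligner, counting options, build and annotation are not given in the sources used here. Summary lines stayed out of library sizes. Symbols came from an Ensembl name table, which gave one for 14856 of 25879 genes. Coordinates are not given, since the build of the files is not named. RefSeq Sscrofa11.1 was used to look for overlapping genes. It placed 7 of the 49 genes over another protein-coding gene (RPL29, RPL3L, RPL7A, RPS2, RPS18, RPS25 and RPS28), so their counts are uncertain where counting ignored strand. Reads shared with processed copies can be lost as multi-mapped.

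Diets were compared in 1 fit of 25 libraries with edgeR 4.0.16 (R 4.3.3). It used TMM scaling, filterByExpr (minimum count 10, minimum total 15) and robust quasi-likelihood tests. The tests were run on simulated data whose planted changes were larger than those fitted for the 49 genes, with no library set apart. That run does not show how changes of the size fitted here would fare. Each SE of a log2 fold change was derived as the absolute log2 fold change over the square root of the F statistic of its edgeR test. DESeq2 1.42.0 and the other alternatives are in the closing section. CPM values are gene counts scaled to equal library totals, and log2 values use CPM + 1. They leave out the TMM factors, which ran from 0.679 to 1.54, so the order of libraries by CPM depends on that choice. Paralog ratios used exact two-sided permutation tests, and relations used 100000 permutations within diets. Each pig is 1 replicate. The genes and lists were chosen with earlier results of these data known. The genes named are those past the test, the 6 highest and 6 lowest by median CPM, the 5 smallest p per contrast of diets, the 3 largest and 3 smallest SDs, the paralog pairs and the stalk genes. Others were named after their values were seen. The values of 1 of the 49 genes are not reported here singly and are left out of the plots of single genes.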

Additional observations from a re-analysis of the deposited data

Results flagged for a closer look

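Within each diet group of 8 or 9 libraries, 81 sets of values (named genes, summed shares and paralog ratios) were checked for a highest or lowest library standing far from its neighbour by Dixon's test. Chance gives about 5% of single, independent sets, and 15 of these stood out. That rate does not carry over to these sets, since they share libraries and many of the genes were named for a large SD or a small p, which outlying libraries favour. Of these, 8 came from the library of 10000 IU/kg pig 27, the one with the adipocyte markers. In it RPL3 was at 1043 CPM (next 196), RPLP2 at 5648 CPM (next 1263) and RPS12 at 4123 CPM (next 1157). RPS18 was at 760.4 CPM there (next 450.0), RPS21 at 1585 CPM (next 1084), RPS28 at 5728 CPM (next 3331) and RPS9 at 1977 CPM (next 668). The log2 ratio of RPL3L to RPL3 was -6.69 in the same library (next -1.61). In 5000 IU/kg pig 6, RPS18 was at 578 CPM (next 414), RPS21 at 2993 CPM (next 1122) and RPSA at 750.0 CPM (next 530). The others were single values. RPL4 was at 1017 CPM in control pig 28 (next 612), RPL5 at 1700 CPM in 5000 IU/kg pig 29 (next 965), RPSA at 296 CPM in 10000 IU/kg pig 30 (next 462), and the log2 ratio of RPL3L to RPL3 at -1.46 in 5000 IU/kg pig 18 (next -0.52).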

How the results depend on the processing

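None of the 49 genes and no other gene was called in any of the 3 contrasts under RLE scaling, no low-count filter, DESeq2, the assigned share as a covariate, any single library left out, or without the 5 libraries that stand apart (a set chosen after seeing the data). At an unadjusted p of 0.05, up to 2 of the 49 genes passed under single alternatives. Values that changed sign concerned RPL3 above all. Its log2 fold change at 10000 IU/kg against control was -0.039 with DESeq2, which by default replaces outlying counts in groups of this size, and -0.033 without the 5 libraries. It ran from -0.055 to 0.83 with single libraries left out. Between the doses it was -0.29 with DESeq2 and -0.38 without the 5 libraries, and ran from -0.31 to 0.58. RPS9 at 10000 IU/kg ran from -0.0022 to 0.56, and RPS12 between the doses was -0.013 without the 5 libraries. Without the 5 libraries the difference in log2 ratio between the doses was 0.14 for RPL3L to RPL3 and 0.11 for RPL7L1 to RPL7. With single libraries left out the former ran from -0.95 to 0.020. The correlation of RPL3L with RPL3 was 0.036 without the 5 libraries, 0.019 without the 2 farthest and 0.048 without 10000 IU/kg pig 27. Without the 3 most abundant genes the median summed share was 3.49% in controls, 3.32% at 5000 IU/kg and 3.40% at 10000 IU/kg. With all 49 genes it was 4.47%, 4.44% and 4.55% in the same order. The median at 10000 IU/kg was thus above that of controls with those 3 genes and below it without them. The mean shares without them were 3.57%, 3.46% and 3.99% in the same order, with 10000 IU/kg pig 27 included. The median share was 7.07%, 6.62% and 6.76% in controls, at 5000 and at 10000 IU/kg when the 10 most abundant other genes of each library were left out of the total. No paired analysis was possible because the pig numbers are not shared between diets and litters are not in the labels. With standard errors near 0.33, differences of the size fitted here were not detectable at this number of pigs, which does not show that the diets act alike.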
